A study of Rattus norvegicus with 9 samples.

Results

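The endoplasmic reticulum (ER) chaperones and stress factors examined here are 10 genes: Hspa5, Hsp90b1, Calr, Canx, Pdia3, Pdia4, Pdia6, Xbp1, Atf4 and Ddit3. Their probe sets were those to which the platform annotation gives exactly 1 gene symbol, that of a listed gene. All 10 genes were found, with 13 probe sets among the 31042 that are not controls, and these 31042 carry 14217 named genes. All 13 probe sets passed the filter on dim signal that left 18625 for testing, so no gene was lost to it. The hypothalamus of normally developing female rats had been profiled on Affymetrix arrays, 3 of juvenile animals at 26 days of age (the labels' controls), 3 of early pubertal animals at 29 days and 3 of late pubertal animals at 31 days. Each array holds tissue from 1 rat, with no treatment and no strain named in the labels, so n = 3 per stage stands for animals, and stage and age cannot be told apart.

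The ER is where secreted and membrane proteins fold, and neurons that release peptide hormones send large amounts of precursor protein through it. Lumenal chaperones hold unfolded chains, lectin chaperones hold glycoproteins, and protein disulfide isomerases form and reshuffle disulfide bonds. When unfolded protein builds up, the sensors Ern1, Eif2ak3 and Atf6 start the unfolded protein response, in which Xbp1 and Atf6 drive chaperone genes and Atf4 drives amino acid and stress genes, among them Ddit3. Xbp1 is activated by splicing and Atf4 by translation, and a probe set signal reads neither.

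Promoter sequences are shown first because the chaperones of this group share a regulatory motif, the ER stress response element (ERSE), which Atf6 and Xbp1 are known to bind. The windows span 250 bases before to 50 bases from the annotated gene start in RefSeq (build GRCr8), and 8 of the 10 genes matched; Pdia3 and Pdia6 are not in that table. The motif, CCAAT and CCACG with any 9 bases between them, searched exactly and on both strands, was found in 5 of the 8 windows, against 0.0657% of all 33469 windows (22 of them). It was searched because chaperones of this group are known to share it, so these shares are a description and not a test. The matches follow, read along the motif, with its fixed letters in capitals.
Hspa5 (−43 to −25 from the start): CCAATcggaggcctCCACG
Hsp90b1 (−176 to −158): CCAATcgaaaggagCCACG
Hsp90b1 (−72 to −54, opposite strand): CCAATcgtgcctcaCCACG
Calr (−232 to −214, opposite strand): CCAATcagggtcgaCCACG
Canx (−230 to −212): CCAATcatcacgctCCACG
Xbp1 (−65 to −47): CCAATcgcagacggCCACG
In all 6 the first spacer base was C. The windows of Pdia4, Atf4 and Ddit3 held no exact match. The related motif, ATTGG and CCACG with any 1 base between them, was in 0 of 8 windows (0.0508% of all), as was TGATGNAAN, the core that Atf4 binds at amino acid response elements (3.97% of all). The 5 bases CCAAT on their own, which are also the start of the ERSE, were in 7 of 8 windows and in 37.5% of all.

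Whole windows are given for Hspa5, Hsp90b1 and Calr, the chaperones whose arrays separated between stages below, with each ERSE in capitals as it lies on the gene's strand. The Hspa5 window lies at chr3:38452766-38453065 (plus strand), that of Hsp90b1 at chr7:23012244-23012543 (minus strand) and that of Calr at chr19:40213117-40213416 (plus strand). The Canx and Xbp1 windows, of which the matches above are shown, lie at chr10:35157808-35158107 (minus strand) and chr14:84604373-84604672 (plus strand). The windows of Hspa5, Hsp90b1 and Calr hold 62.0%, 65.7% and 60.3% G and C, where the median of all windows was 51.7%.
Hspa5: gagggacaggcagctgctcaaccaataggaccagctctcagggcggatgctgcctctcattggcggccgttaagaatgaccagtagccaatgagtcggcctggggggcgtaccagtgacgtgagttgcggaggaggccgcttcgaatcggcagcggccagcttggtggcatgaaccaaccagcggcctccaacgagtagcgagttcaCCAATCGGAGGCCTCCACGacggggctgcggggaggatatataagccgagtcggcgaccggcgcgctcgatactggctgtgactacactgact
Hsp90b1: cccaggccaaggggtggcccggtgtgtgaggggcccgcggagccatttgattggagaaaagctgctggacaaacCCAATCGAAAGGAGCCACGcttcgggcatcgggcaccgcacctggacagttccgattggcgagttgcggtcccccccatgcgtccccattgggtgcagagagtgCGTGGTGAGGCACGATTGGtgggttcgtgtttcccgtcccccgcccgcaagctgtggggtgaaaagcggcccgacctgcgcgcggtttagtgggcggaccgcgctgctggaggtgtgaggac
Calr: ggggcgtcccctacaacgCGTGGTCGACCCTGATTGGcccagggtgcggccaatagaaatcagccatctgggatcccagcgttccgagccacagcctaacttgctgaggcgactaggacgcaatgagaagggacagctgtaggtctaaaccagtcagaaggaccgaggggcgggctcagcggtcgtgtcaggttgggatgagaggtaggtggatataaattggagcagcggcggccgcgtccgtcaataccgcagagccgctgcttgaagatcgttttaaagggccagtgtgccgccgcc

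Signals are given as log2(signal + 16) after quantile normalization between arrays, so differences of dim probe sets are understated. The median deposited signal per array ran from 102 to 113 in juvenile, 79.8 to 101 in early pubertal and 102 to 122 in late pubertal animals, and arrays correlated across probe sets at r = 0.967 to 0.979. Without normalization the log2 difference of the median tested probe set was −0.24 for early pubertal minus juvenile and 0.22 for late minus early pubertal animals. Signs below therefore hold relative to the bulk of probe sets. Some precursors of hypothalamic neurons were among the brightest probe sets, Pmch at the 99.9th percentile, Avp at the 99.1st and Oxt at the 99.0th. Sst lay at the 94.5th, Hcrt at the 94.2nd and Trh at the 80.8th. The pituitary hormone genes Prl and Gh1 lay at the 5.45th and 24.5th, Fshb at the 42.0th, Tshb at the 54.0th and Lhb at the 56.8th. In whole tissue, fewer cells of a type and less RNA per cell cannot be told apart.

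No stage difference in this group passed the test. In early pubertal against juvenile animals limma with Benjamini-Hochberg adjustment over all tested probe sets called 0 of 13 member probe sets (0% of all tested), in late pubertal against juvenile animals 0 (0%) and in late against early pubertal animals 0 (0%). The F test over all 3 stages also called 0 of 13 (0%). An unadjusted p under 0.05 was reached by 1 of 13 member probe sets in the first comparison (4.46% of all tested), 0 in the second (4.14%), 2 in the last (5.21%) and 1 by the F test (4.22%). The differences were small as well as uncalled. The unadjusted 95% interval lay wholly within 1.5-fold either way for 12 of 13 probe sets in early pubertal against juvenile animals (76.7% of all tested), 12 in late pubertal against juvenile (76.4%) and 11 in late against early pubertal animals (74.9%).

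**Figure D1:**
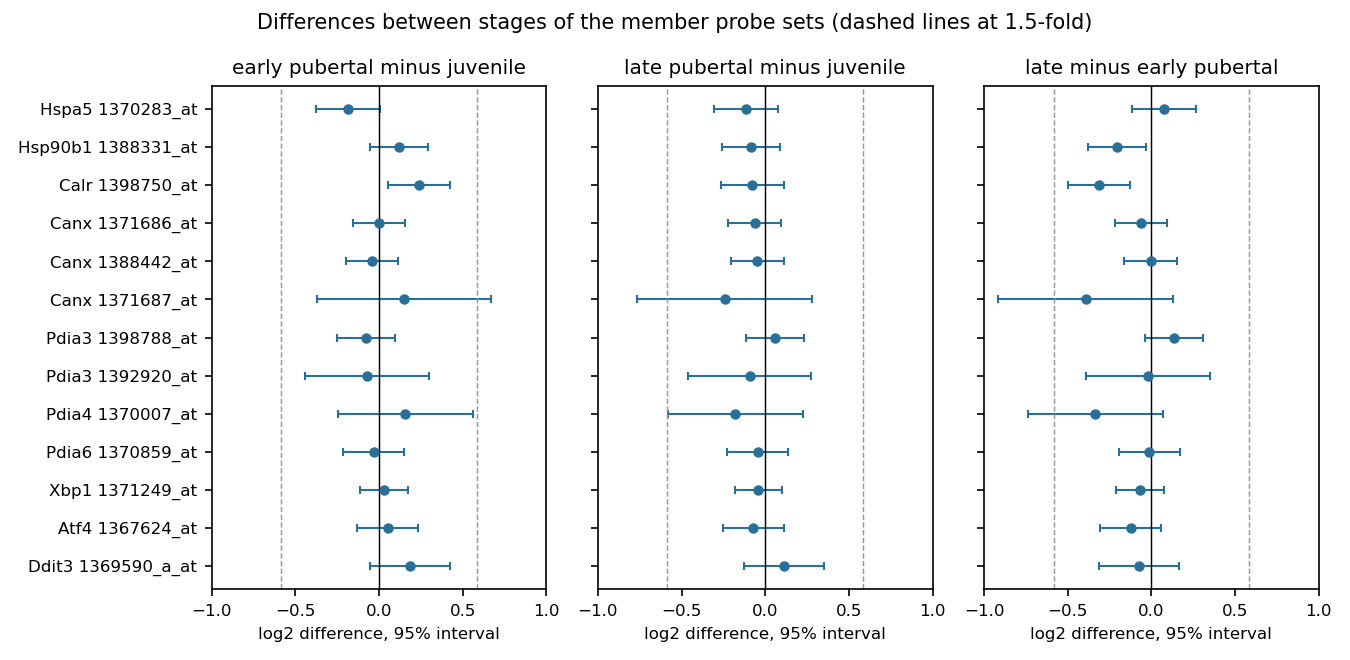
Log2 difference (x axis) of each of the 13 probe sets (rows) in the 3 comparisons, with bars for the unadjusted 95% interval of the limma fit and dashed lines at 1.5-fold. The Canx probe set 1371687_at crosses a dashed line in all 3 panels and Pdia4 in the late minus early pubertal panel, while the other intervals stay between the lines.

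Most of these transcripts varied little from rat to rat. The SD over the 9 arrays was below the median of all tested probe sets (0.18) for 10 of 13 probe sets, and bright probe sets, which most of these are, vary less on this scale. Xbp1 was the steadiest at an SD of 0.0613, in the lowest 2.78% of tested probe sets, with a 1.16-fold span between its lowest and highest array. At the other end the Canx probe set 1371687_at had an SD of 0.38, at the 94.2nd percentile, and Pdia4, the dimmest member, had 0.26, at the 79.5th. Calr had an SD of 0.17 and spanned 1.41-fold.

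**Figure D2:**
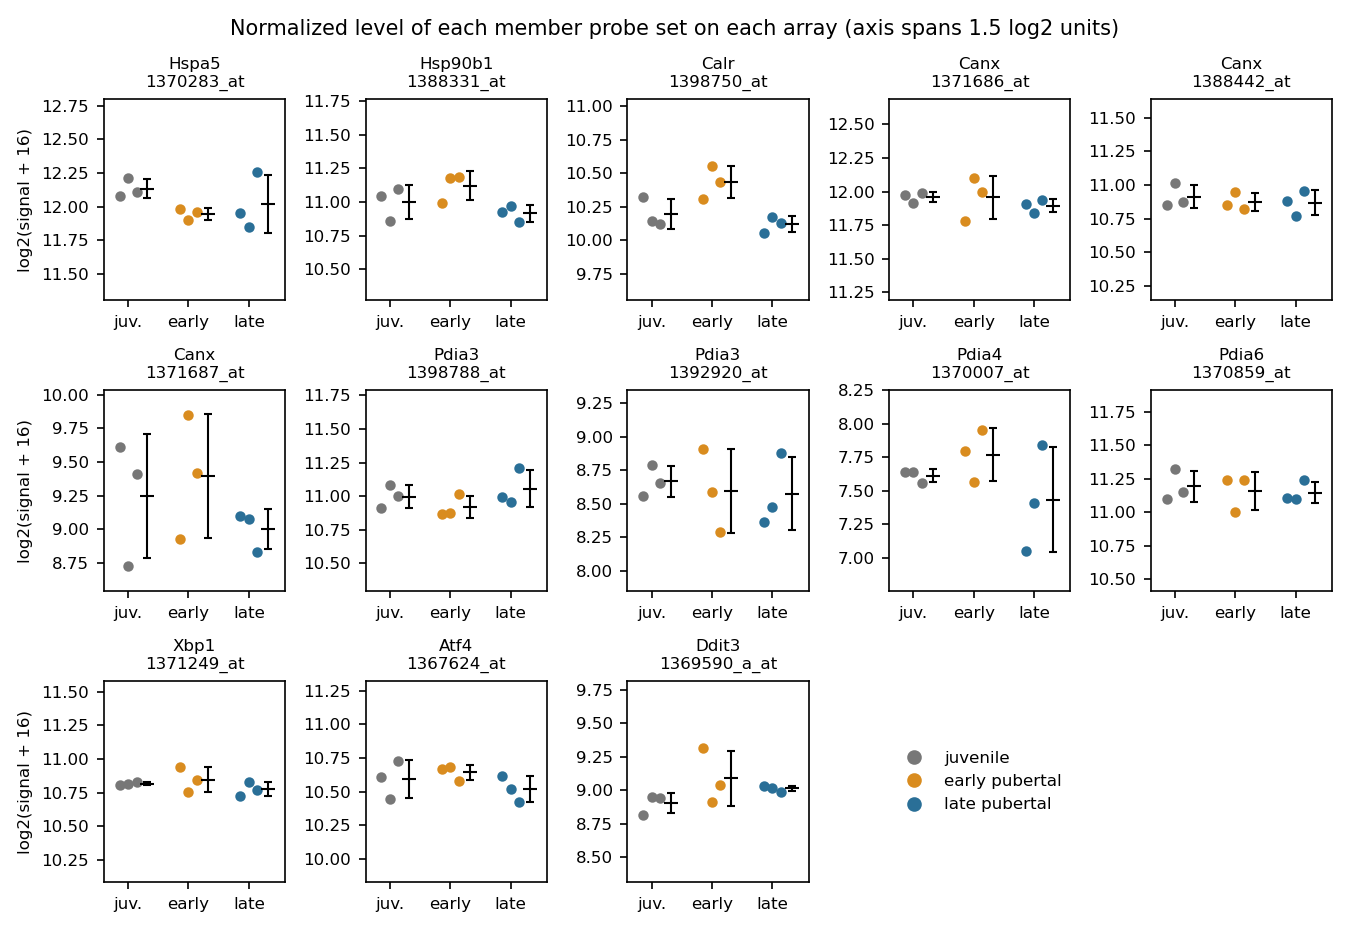
Normalized log2(signal + 16) of each of the 13 probe sets on each of the 9 arrays, in order of stage, with the mean and SD (n = 3) of each stage beside the points. Every panel spans the same 1.5 log2 units. At this normalized level Hspa5 lies lower on the 3 early pubertal than on the 3 juvenile arrays, and Calr and Hsp90b1 lie lower on the 3 late pubertal than on the 3 early pubertal arrays.

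Hspa5 encodes BiP, the Hsp70 of the ER lumen, which also keeps the stress sensors silent when unfolded protein is scarce. Its level was 12.08, 12.21 and 12.11 in juvenile, 11.98, 11.90 and 11.96 in early pubertal and 11.95, 11.85 and 12.26 in late pubertal animals. All 3 early pubertal arrays lay below all 3 juvenile arrays, and late pubertal replicate 20 held the highest value of the 9. The early pubertal mean was 11.95 ± 0.0440, against a juvenile mean of 12.13 ± 0.0710 (SD, n = 3 each), a log2 difference of −0.19 ± 0.09 (SE) with a limma adjusted p of 0.994. As a fold this is 0.879, with a 95% interval of 0.770 to 1.003, and the log2 difference was −0.34 without normalization between arrays. Hspa5 was the 1 member probe set of 13 with early pubertal arrays wholly below juvenile arrays, where 4.43% of all tested were, and 0 of 13 lay wholly above (3.86%). The late pubertal mean of 12.02 ± 0.21 had the widest spread of the stages and stood −0.11 ± 0.09 from the juvenile mean (adjusted p 0.9998), and −0.025 without late pubertal replicate 14 and −0.23 without replicate 20. Late minus early pubertal, the difference was 0.07 ± 0.09 (adjusted p 0.932), −0.046 without late pubertal replicate 20, 0.16 without replicate 14, 0.048 without early pubertal replicate 8 and 0.25 without normalization between arrays.

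Hsp90b1 encodes GRP94, the Hsp90 of the ER lumen, a chaperone for a narrow set of clients that includes insulin-like growth factors. Its level was 11.05, 10.86 and 11.10 in juvenile, 11.00, 11.18 and 11.19 in early pubertal and 10.92, 10.97 and 10.85 in late pubertal animals. Late pubertal arrays lay wholly below early pubertal arrays, and juvenile arrays overlapped both stages. The mean was 10.92 ± 0.0619 in late pubertal and 11.12 ± 0.11 in early pubertal animals, which gives −0.20 ± 0.08 on the log2 scale and a fold of 0.868 with a 95% interval of 0.770 to 0.978 (adjusted p 0.914). Without normalization between arrays the difference was −0.016, and the deposited signals overlapped, at 1884 to 2093 in late pubertal and 1976 to 2052 in early pubertal animals. From juvenile animals the difference was 0.12 ± 0.08 in early pubertal (adjusted p 0.994, and −0.10 without normalization between arrays) and −0.09 ± 0.08 in late pubertal animals (adjusted p 0.9998). With single arrays left out these ran from 0.045 to 0.18 and from −0.16 to −0.039.

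Calr encodes calreticulin, the soluble lectin chaperone and a main calcium store of the ER lumen. It had the smallest F test p of the 13 probe sets at 0.00844 unadjusted (adjusted 0.974), which ranked 126th of 18625. Its level was 10.32, 10.14 and 10.12 in juvenile, 10.31, 10.55 and 10.44 in early pubertal and 10.05, 10.17 and 10.13 in late pubertal animals. Early pubertal arrays were the high ones: all lay above all late pubertal arrays, and 1 juvenile array (replicate 1) lay just above the lowest of them. The mean was 10.12 ± 0.0599 in late pubertal and 10.43 ± 0.12 in early pubertal animals, which gives −0.31 ± 0.09 on the log2 scale and a fold of 0.804 with a 95% interval of 0.707 to 0.915 (adjusted p 0.914). Without normalization between arrays it was −0.11, and the deposited signals overlapped, at 1019 to 1285 in late pubertal and 1166 to 1298 in early pubertal animals. Early pubertal minus juvenile, the difference was 0.24 ± 0.09, a fold of 1.18 (1.04 to 1.34, adjusted p 0.994), and −0.0026 without normalization between arrays. Calr and Hsp90b1 were the 2 member probe sets of 13 wholly lower in late than in early pubertal animals (5.37% of all tested), and 0 of 13 were wholly higher (5.97%).

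Levels of several cell type marker lists also differed between the same stages, though no marker passed the test in any comparison. All 9 tested microglia markers were lower in late than in early pubertal animals, by a median of −0.19, beside 49.9% of all tested probe sets lower. Their mean log2 level per array was 8.24 to 8.29 in late pubertal and 8.39 to 8.53 in early pubertal animals, which do not overlap, while their summed signal overlapped, at 4445 to 5208 in late pubertal and 4776 to 5428 in early pubertal animals. Of the 10 neuron markers 8 were lower in the same comparison (median −0.081), with summed signals of 22867 to 23605 in late pubertal and 22752 to 25791 in early pubertal animals. The 2 that were higher were so without overlap (5.97% of all tested), and 1 of the 8 was wholly lower (5.37%). Of the 4 tested pituitary markers 3 were lower (median −0.24), with sums of 1656 to 2179 in late pubertal and 1913 to 2621 in early pubertal animals.

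Against juvenile animals, 9 of 10 neuron markers were lower in late pubertal animals (median −0.12). Of all tested probe sets 50.4% were lower and 49.6% higher in that comparison. Summed signals of the neuron markers overlapped, at 22867 to 23605 in late pubertal and 23136 to 25911 in juvenile animals. Microglia markers were lower for 8 of 9, and their mean log2 levels of 8.24 to 8.29 in late pubertal and 8.33 to 8.50 in juvenile animals did not overlap. Their summed signals did overlap, at 4445 to 5208 in late pubertal and 4859 to 5807 in juvenile animals. All 11 leptomeningeal fibroblast markers were higher (median 0.32). Their mean log2 levels of 9.79 to 10.01 in late pubertal and 9.46 to 9.71 in juvenile animals again did not overlap. Their summed signals did, at 13425 to 15742 in late pubertal and 11157 to 13849 in juvenile animals. Astrocyte markers were higher for 8 of 10, 4 of them without overlap, where 5.90% of all tested were wholly higher. Mean log2 levels of the astrocyte markers were 11.20 to 11.26 in late pubertal and 11.05 to 11.17 in juvenile animals. Ependymal and tanycyte markers were higher for 4 of 6, at 8.20 to 8.25 in late pubertal and 8.04 to 8.13 in juvenile animals. Summed signals overlapped between these stages for astrocyte markers and for ependymal and tanycyte markers. No marker of these lists passed the test in any comparison, and their part in the members' values was not tested.

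Canx encodes calnexin, the membrane-bound counterpart of calreticulin, and has 3 probe sets. Over the 9 arrays 1371686_at and 1371687_at varied alike (r = 0.76, within stages 0.74), while 1388442_at had r = 0.31 with the first and −0.24 with the other. The brightest, 1371686_at, ranged from 11.78 to 12.10 over the 9 arrays, with both extremes in early pubertal animals. Its 3 stage differences lay between −0.06 and 0.00, with SEs of 0.07, and 1388442_at gave −0.0415, −0.0465 and −0.0050 for early pubertal minus juvenile, late pubertal minus juvenile and late minus early pubertal. The dimmest, 1371687_at, read 9.61, 8.72 and 9.41 in juvenile, 8.93, 9.85 and 9.42 in early pubertal and 9.10, 9.08 and 8.83 in late pubertal animals. On that probe set the low juvenile array lay below every other array, and its difference of −0.39 ± 0.24 late minus early pubertal had an adjusted p of 0.914.

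Of the protein disulfide isomerases, Pdia3 (ERp57) works with calnexin and calreticulin on glycoproteins. On its brighter probe set, 1398788_at, all 9 arrays lay between 10.87 and 11.21, the highest being late pubertal replicate 20, and the largest stage difference was 0.13 ± 0.08 late minus early pubertal (adjusted p 0.914), which was 0.057 without replicate 20 and 0.32 without normalization between arrays (adjusted p 0.257). The dimmer one, 1392920_at, differed between stages by −0.09 to −0.02 with SEs of 0.17. Pdia6 stayed between 11.00 and 11.32, with stage differences of −0.05 to −0.01 and SEs of 0.08. Pdia4 (ERp72) read 7.64, 7.64 and 7.56 in juvenile, 7.80, 7.56 and 7.95 in early pubertal and 7.05, 7.41 and 7.84 in late pubertal animals. Its late pubertal arrays spread from 7.05 to 7.84 and overlapped both other stages, and the late minus early pubertal difference of −0.33 ± 0.18 had an adjusted p of 0.914. It was −0.14 without late pubertal replicate 12, −0.54 without late pubertal replicate 20 and −0.10 without normalization between arrays.

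Xbp1, the transcription factor that is spliced by Ern1, read 10.80, 10.81 and 10.83 in juvenile, 10.94, 10.75 and 10.84 in early pubertal and 10.72, 10.83 and 10.77 in late pubertal animals. The stages overlapped throughout. Its folds were 1.02 (0.924 to 1.13) early pubertal over juvenile, 0.972 (0.881 to 1.07) late pubertal over juvenile and 0.953 (0.863 to 1.05) late over early pubertal, and the signs of the first and last turned without normalization between arrays (log2 −0.20 and 0.13). Atf4, the effector of the integrated stress response, read 10.61, 10.45 and 10.73 in juvenile, 10.67, 10.69 and 10.58 in early pubertal and 10.62, 10.52 and 10.42 in late pubertal animals. Its stages overlapped too, and the widest difference was −0.12 ± 0.08 late minus early pubertal, a fold of 0.918 (0.809 to 1.04, adjusted p 0.914), and 0.092 without normalization between arrays.

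Ddit3 encodes CHOP, which drives cell death programmes when ER stress persists. It read 8.82, 8.95 and 8.95 in juvenile, 9.31, 8.91 and 9.04 in early pubertal and 9.03, 9.02 and 8.99 in late pubertal animals. At this normalized level every late pubertal array lay above every juvenile array, and early pubertal replicate 7 was the highest of the 9. The deposited signals overlapped, at 495 to 577 in late pubertal and 471 to 513 in juvenile animals. The late pubertal mean was 9.01 ± 0.0210 and the juvenile mean 8.90 ± 0.0754, a log2 difference of 0.11 ± 0.11 and a fold of 1.08 (0.915 to 1.27, adjusted p 0.9998), which was 0.066 on the log2 scale without juvenile replicate 1. Ddit3 was the 1 of 13 wholly higher in that comparison, as were 5.90% of all tested, and 0 of 13 were wholly lower (5.52%). Early pubertal minus juvenile, it differed by 0.19 ± 0.11 (adjusted p 0.994), by 0.073 without replicate 7 and by −0.075 without normalization between arrays.

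The stage with the highest mean was the early pubertal one for 7 of 13 probe sets (34.2% of all tested), the juvenile one for 5 (32.4%) and the late pubertal one for 1 (33.4%), that of Pdia3 1398788_at. With the brightest probe set per gene, the median log2 difference of the 10 genes was 0.04 early pubertal minus juvenile, with 6 genes higher and 4 lower. Late pubertal minus juvenile it was −0.07, with 2 higher and 8 lower, and late minus early pubertal −0.07, with 2 higher and 8 lower. Of all tested probe sets, 49.6% were higher and 50.4% lower early pubertal minus juvenile, 49.6% and 50.4% late pubertal minus juvenile, and 50.1% and 49.9% late minus early pubertal. Without normalization between arrays the first and the last of these medians of the 10 genes were −0.16 and 0.12, so their signs turned, beside −0.24 and 0.22 for all tested. The comparisons share arrays in pairs and are not independent of each other.

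The 10 genes did not vary as a single block over the 9 arrays. Of 45 gene pairs, 26 had a Pearson r above 0 and 19 below, with a median of 0.13. These correlations over 9 arrays are descriptions with no test. Calr and Hsp90b1 went together (r = 0.77, Spearman rho 0.65, and 0.50 on deviations from stage means), as did Hsp90b1 and Atf4 (r = 0.71, rho 0.63, within stages 0.57). Hspa5 went with Pdia3 (r = 0.74, rho 0.60, within stages 0.86) and Pdia6 (r = 0.63, rho 0.62, within stages 0.68). Between Hspa5 and Hsp90b1 r was −0.53 (rho −0.42, within stages −0.60), although both are lumenal chaperones with an ERSE. Whether these values rest on few arrays was not tested. Leaving out the 2 arrays farthest from the median of the first gene narrows that gene's range, which by itself can lower r. It took Hspa5 with Pdia3 to 0.16, Hspa5 with Pdia6 to 0.29 and Calr with Hsp90b1 to 0.41. Hsp90b1 with Hspa5 went to −0.37, and Hsp90b1 with Atf4 stood at 0.86.

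**Figure D3:**
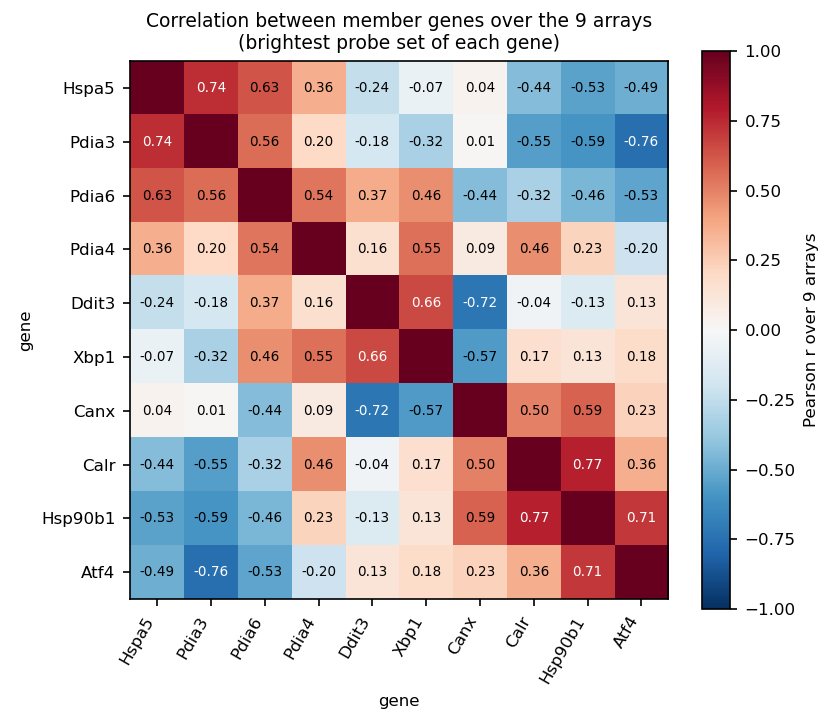
Pearson r over the 9 arrays between the brightest probe sets of the 10 genes, genes on both axes and r as colour and number. Hspa5, Pdia3 and Pdia6 are positive with each other (0.56 to 0.74), Calr, Hsp90b1 and Atf4 are positive with each other (0.36 to 0.77), and every pair across these trios is negative. The trios were picked from these same values. Within stages Calr with Atf4 was −0.10, while the other pairs kept their signs. With 2 arrays left out as in the text, Hspa5 with Atf4 was 0.56, while the other pairs across the trios stayed negative, Calr with Pdia6 at −0.0075.

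Among the other 18624 tested probe sets, those most like Hspa5 over the 9 arrays were not ER genes by these lists. The 10 named ones with the highest r ran from Cbarp (0.94, within stages 0.97) through Ptbp2 (0.92), a neuronal splicing regulator, Ube3a (0.91), an imprinted ubiquitin ligase, Isy1 (0.90), Ddx5 (0.90), an RNA helicase, Serinc1, Nufip1, Prr12 and Appbp2 to Wasl (0.87). With so many probe sets and 9 arrays, r above 0.9 was reached by 10 of them. Genes of glycoprotein folding and of the translocon were not looked up in this ranking. Among the ER genes that were, the nearest was Dnajb11, a cochaperone of BiP, at r = 0.77 and rank 179. It was followed by Pdia3 at rank 281 and Tmx1, a membrane-bound thioredoxin-like oxidoreductase, at r = 0.71 and rank 355. Sdf2l1, a BiP cofactor, came next at r = 0.70 and rank 408. On deviations from stage means Sdf2l1 reached 0.94, rank 12. Hsp90b1 stood at rank 17093 and Calr at 16047, near the far end.

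Related genes were then counted in the same fit, 1 brightest tested probe set per gene, and 0 of the 174 tested entries of 10 lists passed in any comparison. Of 20 other ER chaperones and cochaperones, 13 were higher and 7 lower in early pubertal than in juvenile animals (median 0.04), 8 and 12 in late pubertal than in juvenile (−0.05), and 5 and 15 in late than in early pubertal animals (−0.11, beside 49.9% of all tested lower). Hspa13, an ATPase of microsomes, differed by 0.38 ± 0.13 early pubertal minus juvenile (adjusted p 0.994) and Mesd, a chaperone of lipoprotein receptors, by 0.17 ± 0.06 (0.994). Manf, a secreted ER stress protein, differed by −0.21 ± 0.09 late minus early pubertal (0.914).

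The other disulfide enzymes, 16 tested, split 8 and 8 in early pubertal against juvenile animals, with Erp29 at 0.22 ± 0.12, Txndc5 at 0.25 ± 0.13 and Erp44 at −0.04 ± 0.10. In late against early pubertal animals this list again split 8 and 8, and Erp29 stood at −0.29 ± 0.12. The glycoprotein folding cycle had 7 of 15 higher in early pubertal than in juvenile animals. In late against early pubertal animals 9 of 15 were higher. There Ddost, a subunit of the oligosaccharyltransferase, differed by −0.27 ± 0.10, Edem2 by −0.40 ± 0.22 and Man1b1 by 0.00. Of 23 translocon genes 18 were higher in early pubertal than in juvenile animals (median 0.04), where 49.6% of all tested were higher. In late against early pubertal animals 11 were higher and 12 lower (median −0.01). Late minus early pubertal, Srprb differed by −0.26 ± 0.09, Ssr4 by −0.27 ± 0.10 and Ssr2 by −0.16 ± 0.07. ER-associated degradation had 8 of 20 higher in late pubertal than in juvenile animals. There Syvn1, the Hrd1 ubiquitin ligase, differed by −0.38 ± 0.13 with non-overlapping stages, Ufd1 by 0.22 ± 0.07, also without overlap, and Ngly1 by 0.08 ± 0.10. Adjusted p for the genes of this paragraph was 0.914 or above in every comparison.

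Of 16 listed sensors and transducers of the response, 14 had a probe set with exactly 1 symbol and were tested. The sensor Ern1 was not among them. Of these 14, 9 were higher in early pubertal than in juvenile and 8 higher in late pubertal than in juvenile animals. Atf6 differed by −0.27 ± 0.13 late pubertal minus juvenile, Tmbim6 by 0.09 ± 0.05 and Eif2s1, the eIF2 alpha subunit that the stress kinases phosphorylate, by −0.13 ± 0.09. Of 33 listed genes downstream of Atf4 and Ddit3, all on the array, 24 passed the filter on dim signal. Atf3 and Trib3 were among those that did not. Of the 24 tested, 18 were higher and 6 lower in late pubertal than in juvenile animals (median 0.05, where 49.6% of all tested were higher). Ppp1r15a, which encodes GADD34, the phosphatase subunit that ends the response, differed by 0.44 ± 0.13 in that comparison and by 0.39 ± 0.13 early pubertal minus juvenile, with non-overlapping stages both times (adjusted p 0.9998 and 0.994). The cationic amino acid transporter Slc7a1 differed by −0.33 ± 0.11 and −0.28 ± 0.11 in the same comparisons, also without overlap, and Slc7a3 by −0.28 ± 0.11 and −0.05 ± 0.11. All 3 other eIF2 kinases were higher in late pubertal than in juvenile animals, Eif2ak2 by 0.32 ± 0.16 and Eif2ak4 and Eif2ak1 both by 0.09.

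Cytosolic and mitochondrial heat shock proteins had 10 of 17 members higher in early pubertal and 5 of 17 in late pubertal than in juvenile animals. Cryab, a small heat shock protein abundant in glia, differed by 0.44 ± 0.14 late pubertal minus juvenile without overlap (adjusted p 0.9998), Hspe1 by 0.09 ± 0.05 and Hspa1a by −0.13 ± 0.15. The peptide precursors and processing enzymes that load the ER of secretory neurons were higher for 13 of 22 genes in early pubertal than in juvenile animals (median 0.12) and for 10 of 22 in late pubertal than in juvenile animals (−0.04). Chgb differed by 0.16 ± 0.06, Nts by 0.34 ± 0.12 and Crh by −0.45 ± 0.19 early pubertal minus juvenile (each adjusted p 0.994).

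**Figure D4:**
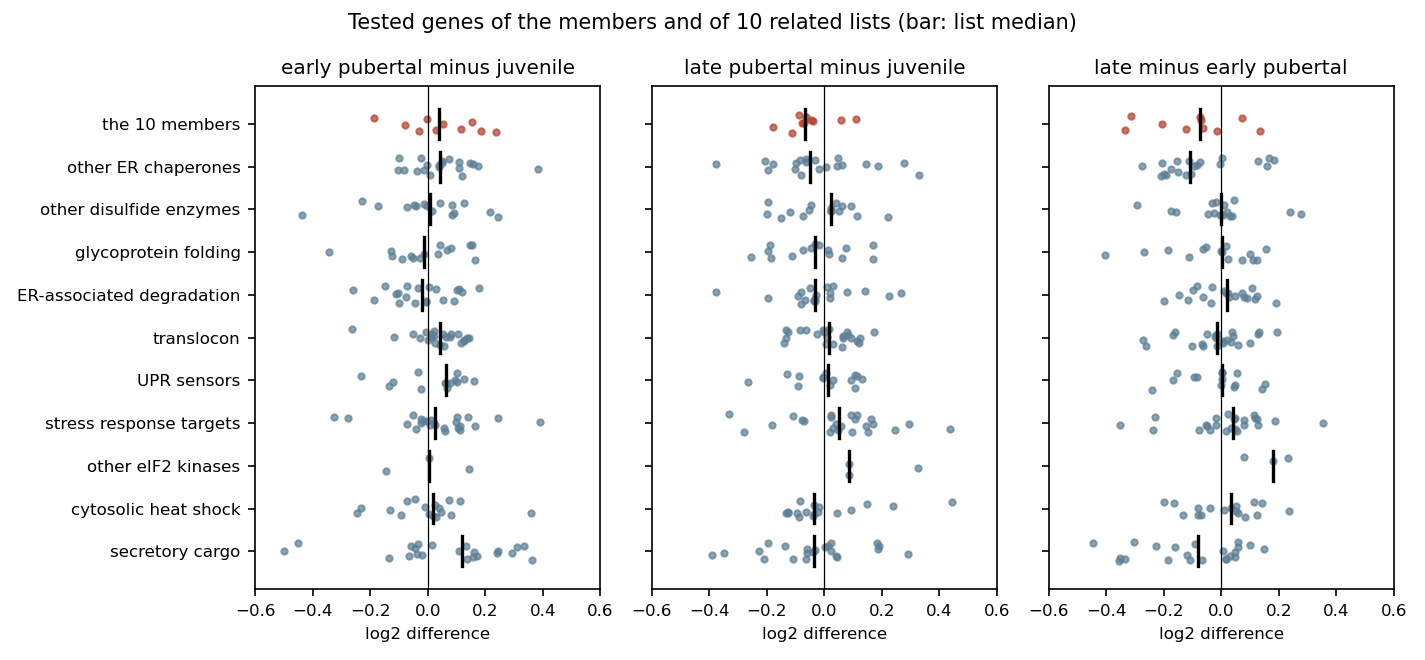
Log2 difference (x axis) of each tested gene (points, brightest probe set) of the 10 members and of 10 related lists (rows) in the 3 comparisons, with a black bar at each list's median. The members' points lie between −0.33 and 0.24, and the medians of all lists lie within 0.2 of 0.

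Sequence gave one more grouping. Beside the 5 members, 16 other named genes had an exact ERSE in the window, and 10 of these were tested, among them the ER genes Creld2, Dnajc3, Ero1b and Calr4. In early pubertal against juvenile animals 5 of the 10 were higher and 5 lower, with a median of −0.0045, and none passed. In late pubertal against juvenile animals 6 were higher and 4 lower, with a median of 0.01, while all 5 ERSE-bearing members were lower, by −0.11 to −0.04, and again none passed. Of all 10 members 8 were lower in that comparison, beside 50.4% of all tested probe sets. Among those whose window held no exact match, Pdia4 stood at −0.18 and Atf4 at −0.07, while Ddit3 stood at 0.11. In late against early pubertal animals 7 of the 10 others were higher (median 0.04), and 1 of the 5 members was, Hspa5. Exact matching leaves out elements that differ from the consensus by a base.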

How the data were processed

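The authors deposited 1 linear signal intensity per probe set and array, computed with MAS5, per the submitters' processing notes. Its version and scaling target are not stated there. Trimmed means of the arrays (2% off each end) differed by up to 1.42 times. From the 31099 probe sets 57 controls were left out; 20826 of the others have 1 symbol, 436 several and 9780 none here. Values were taken as log2(signal + 16), quantile-normalized, and kept above the 40th percentile of mean level. The linear model (limma 3.58.1, R 4.3.3) used all 9 arrays and 1 mean per stage. Its variance prior followed intensity, with 6 residual and 5.80 prior degrees of freedom. Tests were two-sided, with Benjamini-Hochberg adjustment over the 18625 probe sets within each comparison at 0.05. The number of arrays limits precision. The fit was tested on simulated data. Members and lists were chosen with earlier results of these data known. Besides every member, the text names up to 3 genes per related list by the smallest F test p, the 10 named probe sets most correlated with Hspa5, and ER genes singled out after their values were seen (Dnajb11, Tmx1, Sdf2l1, and those with an ERSE). Detection calls were not used.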

Additional observations from a re-analysis of the deposited data

How the results depend on the processing

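No member probe set passed in any comparison or by the F test under any alternative run: constants of 1 and 64, the deposited level, median centring, no filter or a 60th percentile filter, a prior without trend or robust, array weights, the 6 arrays compared (with no F test), and each array left out in turn. The lowest adjusted p reached was 0.225, at the deposited level. Of 570 recomputed gene differences 31 turned sign, none of them called, and 13 of 30 gene results never turned; the cause was not tested. The filter settings, the prior settings and the fit of the 6 arrays compared leave a difference unchanged, so those of the 570 could not turn. At the deposited level, where all probe sets shifted, the median of the 10 genes was −0.16 early pubertal minus juvenile and 0.12 late minus early pubertal. The gene values that turned there were Calr −0.0026, Hsp90b1 −0.10, Pdia4 −0.087, Xbp1 −0.20, Atf4 −0.19 and Ddit3 −0.075 early pubertal minus juvenile, and Canx 0.096, Pdia6 0.18, Xbp1 0.13, Atf4 0.092 and Ddit3 0.16 late minus early pubertal. Early pubertal minus juvenile, median centring gave Canx 0.071, and array weights gave Pdia6 0.026 and Atf4 −0.016. With single arrays left out, early pubertal minus juvenile ran from −0.070 to 0.087 for Canx, −0.077 to 0.047 for Pdia6, −0.020 to 0.12 for Atf4 and −0.017 to 0.076 for Xbp1. Late pubertal minus juvenile ran from −0.092 to 0.021 for Pdia6, −0.38 to 0.011 for Pdia4 and −0.021 to 0.11 for Pdia3. Late minus early pubertal ran from −0.092 to 0.027 for Pdia6, −0.16 to 0.037 for Ddit3, −0.15 to 0.0077 for Canx and −0.046 to 0.16 for Hspa5 (the low end without late pubertal replicate 20). No paired analysis was possible because the stages share no replicate numbers.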
